A study of Mus musculus with 12 samples.

Results

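The subject here is a small set of genes of the tumour necrosis factor (TNF) receptor family in mouse macrophages: the receptor genes Tnfrsf9, Tnfrsf1a, Tnfrsf1b, Tnfrsf11a, Cd40 and Ltbr, and Tnfsf9, which encodes the ligand of Tnfrsf9. All probe sets annotated to exactly 1 of these symbols were taken. That gave 12 probe sets for the 7 genes, of 22626 probe sets and 12393 genes measured. Total RNA was hybridised to Affymetrix mouse arrays, 3 arrays in each of 4 groups. The first group was the mouse macrophage-like cell line RAW264.7 cultured overnight with estradiol at 1 ug/mL, and the second was unstimulated RAW264.7 cells. The third was bronchoalveolar lavage macrophages of pregnant mice, and the fourth those of control mice, with lavage cells taken straight to RNA. By the design text the cells without estradiol were given vehicle, while their group label reads unstimulated. The labels attach the estradiol treatment text to all samples, the lavage ones included, so groups were taken from the group label. They do not give strain, age, how far pregnancy had advanced, whether control mice were female, or whether replicates were separate cultures or animals. The p-values therefore measure the spread between these arrays, which may be partly technical. The cell line is a single line, so its arrays say nothing of variation between animals.

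TNF family receptors sit in the cell membrane and are engaged by trimeric ligands, which are themselves mostly membrane proteins of neighbouring cells. Receptors without a death domain, such as Tnfrsf9, Tnfrsf1b, Cd40, Ltbr and Tnfrsf11a, recruit TRAF adaptors and activate NF-kB. Tnfrsf1a carries a death domain and can signal either to NF-kB or to cell death. Several genes of the family, Cd40 and Tnfrsf9 among them, are known to be induced when immune cells are activated.

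Values are log2(intensity + 1) of the deposited intensities. The array number limits their precision, and the level of one probe set was not set against that of another. A probe set is called dim on an array where it lay below that array's 40th percentile. No detection call measured the background, so the size of a change against a dim group is best read as a lower bound. Array medians lay between 369 and 393, and arrays of a group correlated at 0.995 to 0.999 (Pearson). Of 7 macrophage markers, all 7 lay above the 40th percentile on the pregnant and control lavage arrays and 6 on the RAW264.7 arrays, where Mertk was dim. Of 8 alveolar macrophage markers, all 8 lay above it on the lavage arrays and 3 on the RAW264.7 arrays. Lavage arrays also carried markers of epithelium, with summed intensities of 15986 to 27476 in pregnant and 14034 to 23767 in control samples, against 373 to 401 in estradiol and 374 to 450 in unstimulated RAW264.7 cells. Estradiol replicate 2 stood apart in RNA quality, with a 3' minus 5' difference of 0.74 (log2) for actin, against 0.46 and 0.48 on the other estradiol arrays and 0.39 to 0.43 on the unstimulated arrays.

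In RAW264.7 cells given estradiol, Tnfrsf9, its ligand gene Tnfsf9 and Cd40 were higher than in unstimulated cells. Of the 12 probe sets, 5 rose and 0 fell by limma at an adjusted p under 0.05, against 5.1% of all probe sets called higher. The 5 belong to these 3 genes. The members were chosen with earlier results of these data known, so a count above the share of all probe sets is no test of the family. The groups did not overlap for 6 probe sets, all higher with estradiol, against 17.5% of all probe sets. Tnfrsf1a, Tnfrsf1b, Tnfrsf11a and Ltbr gave no call. Without estradiol replicate 2 the count was again 5. Handling of the cultures, and solvent if the unstimulated cultures had none, cannot be told apart from estradiol.

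**Figure D1:**
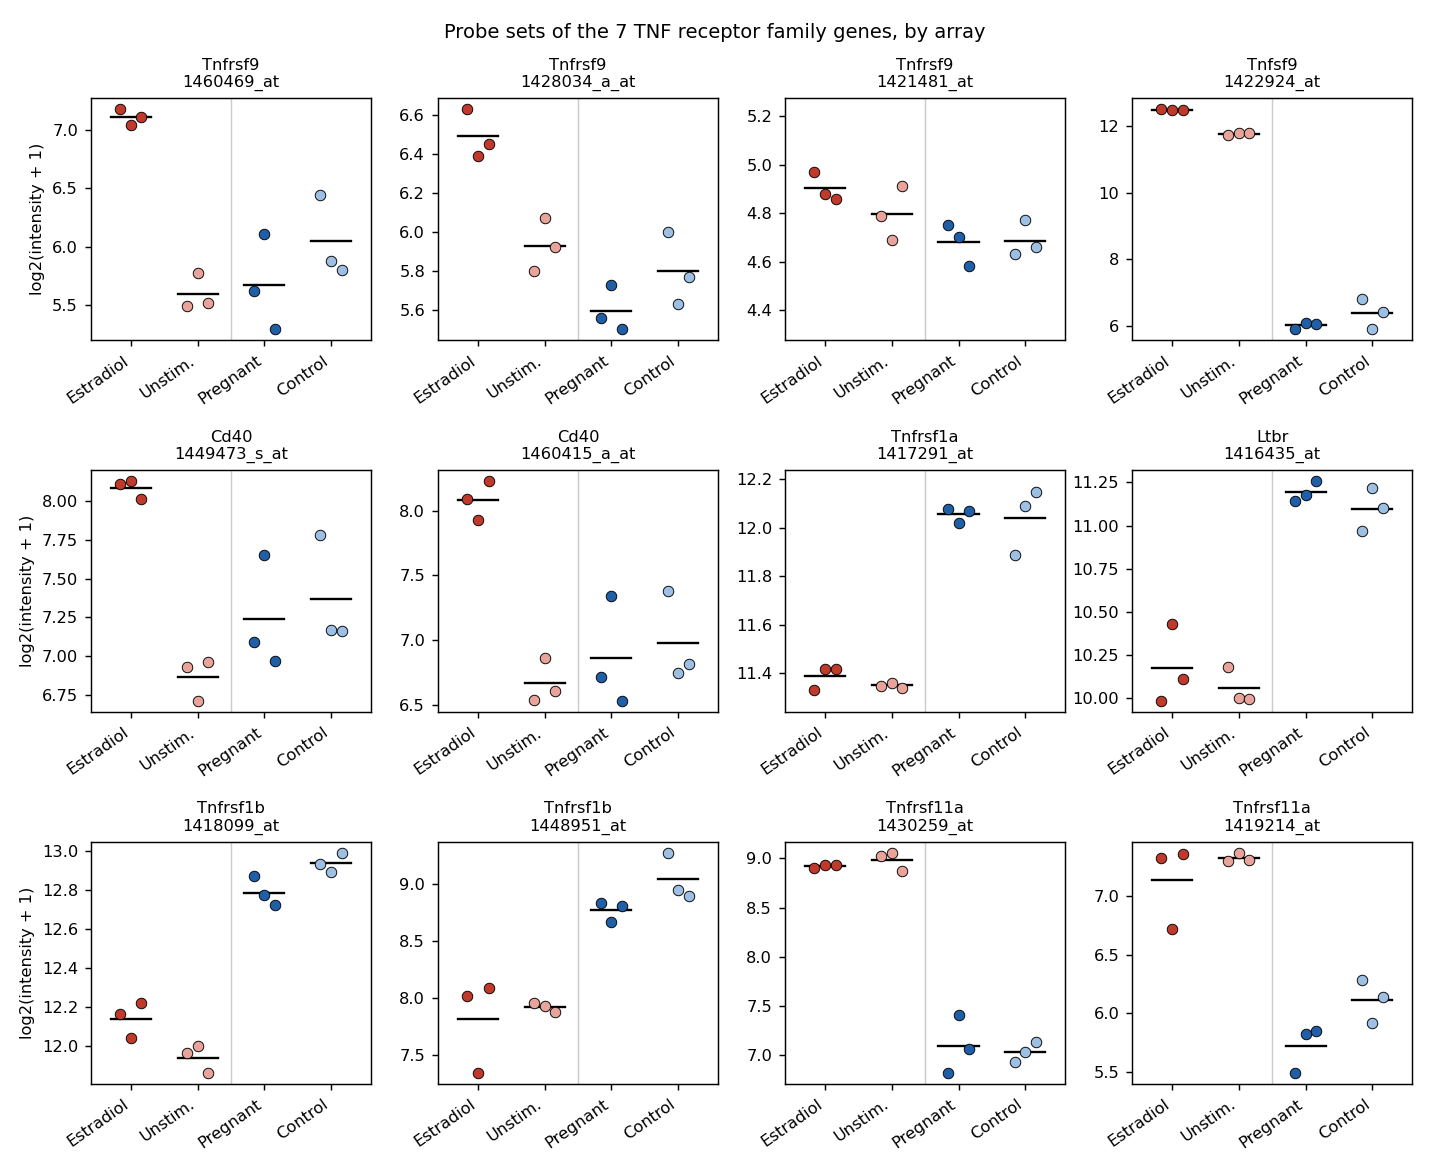
Level of each of the 12 probe sets, as log2(intensity + 1) on the vertical axis, in the 3 arrays (points) and as the mean (bar) of each group. Axes differ between panels. Estradiol-treated cells lie above unstimulated ones without overlap for Tnfsf9, both Cd40 probe sets and Tnfrsf9 1460469_at and 1428034_a_at, and Tnfsf9 lies near 12 in the cell line and near 6 in lavage cells.

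Tnfrsf9 encodes an inducible costimulatory receptor best known from activated T cells. Probe set 1460469_at read 7.18, 7.04 and 7.11 on the estradiol arrays, against 5.49, 5.77 and 5.52 on the unstimulated arrays. The groups were well apart, with a log2 change of 1.52 ± 0.09 (SE, n = 3 each, 2.86-fold, limma adjusted p = 0.00036). The estradiol arrays were also the only 3 of the 12 on which this probe set was not dim. Probe set 1428034_a_at, dim on all 12 arrays, read 6.63, 6.39 and 6.45 with estradiol, against 5.80, 6.07 and 5.92 without. It rose by 0.56 ± 0.09 (limma adjusted p = 0.0148), a call that ended without unstimulated replicate 1 (adjusted p = 0.0583), unstimulated replicate 3 (0.0690) or estradiol replicate 3 (0.0525). The third probe set, 1421481_at, was dim throughout and overlapped between groups, at 4.97, 4.88 and 4.86 with estradiol and 4.79, 4.69 and 4.91 without. Its change of 0.10 ± 0.07 did not pass (limma adjusted p = 0.424). The 3 probe sets thus differed in the size of their change, from 0.10 to 1.52.

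Promoter windows of Tnfrsf9 are shown because the gene was called with estradiol on 2 of its probe sets. RefSeq lists 2 starts on the plus strand, and each window runs from 250 bases before the start to 50 after it (build GRCm38.p6). That of Tnfrsf1a, which gave no call, stands beside them. Matches to the kB motif, the letters that NF-kB subunits bind, and to the AP-1 motif TGANTCA are in capitals.
Tnfrsf9, chr4:150919905-150920204, plus strand: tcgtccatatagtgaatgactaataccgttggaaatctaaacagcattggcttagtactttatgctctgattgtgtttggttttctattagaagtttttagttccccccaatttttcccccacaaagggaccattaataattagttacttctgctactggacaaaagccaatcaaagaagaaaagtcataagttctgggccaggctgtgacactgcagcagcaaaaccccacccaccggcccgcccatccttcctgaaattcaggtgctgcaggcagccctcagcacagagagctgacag
Tnfrsf9, chr4:150927749-150928048, plus strand: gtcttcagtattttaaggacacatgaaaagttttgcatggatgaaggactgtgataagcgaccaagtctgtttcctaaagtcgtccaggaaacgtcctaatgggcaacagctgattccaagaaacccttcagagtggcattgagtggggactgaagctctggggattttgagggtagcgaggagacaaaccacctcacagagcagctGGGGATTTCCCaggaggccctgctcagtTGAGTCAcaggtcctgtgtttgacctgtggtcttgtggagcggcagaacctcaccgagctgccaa
Tnfrsf1a, chr6:125349473-125349772, plus strand: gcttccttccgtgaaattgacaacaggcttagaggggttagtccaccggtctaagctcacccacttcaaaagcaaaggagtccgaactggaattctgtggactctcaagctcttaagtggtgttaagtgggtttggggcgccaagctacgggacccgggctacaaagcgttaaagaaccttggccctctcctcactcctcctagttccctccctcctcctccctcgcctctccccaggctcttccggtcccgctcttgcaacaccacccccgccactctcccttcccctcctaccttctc

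The window at the downstream Tnfrsf9 start held overlapping kB matches from base -43 to base -33, on both strands, and an AP-1 match from base -15 to base -9, also read on both strands. The upstream Tnfrsf9 window and those of Tnfrsf1a, Tnfrsf1b, Tnfrsf11a and Ltbr held neither motif. No window was available for Cd40 or Tnfsf9, the other genes called with estradiol. Whether the motifs go with the estradiol calls can therefore not be read from these windows. Both strands were searched in 32851 RefSeq windows of the same length. The kB motif was found in 8.46% of them and the AP-1 motif in 7.81%. The palindromic estrogen response element was in 0.05% of windows and in none of the 6 listed for these genes. The shorter element AGGTCA, one arm of it, was in 16.26% of windows and matched once, on the minus strand from base 6 to base 11, where base 1 is the first after the downstream Tnfrsf9 start. These are matches of letters, and binding was not measured.

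Tnfsf9 encodes the membrane ligand of Tnfrsf9, which activated macrophages, dendritic cells and B cells can carry. Its single probe set, 1422924_at, read 12.52, 12.48 and 12.49 on the estradiol arrays, against 11.73, 11.79 and 11.79 on the unstimulated arrays. Replicates of a group lay within 0.1 of each other, and the groups were apart by a log2 change of 0.73 ± 0.05 (1.66-fold, limma adjusted p = 0.00047). The call held without any 1 of the 6 arrays, with adjusted p from 0.0014 to 0.00541.

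Cd40 encodes the receptor through which helper T cells, carrying CD40 ligand, activate antigen-presenting cells. Probe set 1449473_s_at read 8.11, 8.13 and 8.01 with estradiol, against 6.93, 6.71 and 6.96 without. Its log2 change was 1.22 ± 0.08 (2.33-fold, limma adjusted p = 0.00049). Probe set 1460415_a_at read 8.09, 7.93 and 8.23 with estradiol, against 6.54, 6.86 and 6.61 without. It changed by 1.42 ± 0.11 (2.67-fold, limma adjusted p = 0.000888). Neither probe set overlapped between the groups, and both were dim on the unstimulated arrays and above the 40th percentile on the estradiol arrays. Both calls held without any 1 array, with changes of 1.14 to 1.26 and of 1.34 to 1.51.

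The receptors of TNF itself gave no call with estradiol. Tnfrsf1a, the receptor with the death domain, read 11.33, 11.42 and 11.42 on the estradiol arrays, against 11.35, 11.36 and 11.34 on the unstimulated arrays. The ranges overlapped, with a log2 change of 0.04 ± 0.05 and a 95% interval of -0.08 to 0.16 (limma adjusted p = 0.675). Tnfrsf1b, the receptor that lacks a death domain, has 2 probe sets. The first, 1418099_at, read 12.16, 12.04 and 12.22 with estradiol, against 11.96, 12 and 11.86 without. The groups did not overlap, but the difference of 0.20 ± 0.07 did not pass (limma adjusted p = 0.127). It passed with array weights (0.28, limma adjusted p = 0.00327), whose estimate did not converge for these arrays and gave estradiol replicate 3 a weight of 11.2, against 0.194 to 1.22 for the others.

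The second Tnfrsf1b probe set, 1448951_at, read 8.02, 7.34 and 8.09 with estradiol, against 7.96, 7.93 and 7.88 without, a difference of -0.10 ± 0.19 (limma adjusted p = 0.786). One array, estradiol replicate 2, was low, and without it the difference was 0.14 (limma adjusted p = 0.164). That array also had the highest 3' minus 5' differences of the RAW264.7 arrays, 4.31 against 3.16 and 3.43 on the other estradiol arrays and 3.20 to 3.32 on the unstimulated arrays for the transferrin receptor. The part of RNA quality in the low value was not tested.

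Ltbr, the receptor for membrane lymphotoxin and for Tnfsf14, read 9.98, 10.43 and 10.11 on the estradiol arrays, against 10.18, 10 and 9.99 on the unstimulated arrays. The ranges overlapped (log2 change 0.12 ± 0.12, 95% interval -0.17 to 0.41, limma adjusted p = 0.607). Without estradiol replicate 2 the difference was -0.01.

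Tnfrsf11a encodes RANK, the receptor that drives macrophage precursors to become osteoclasts when it meets its ligand RANKL (Tnfsf11). RAW264.7 cells are widely used for that assay. Probe set 1430259_at read 8.90, 8.93 and 8.93 on the estradiol arrays, against 9.02, 9.06 and 8.87 on the unstimulated arrays, a difference of -0.07 ± 0.06 within an interval of -0.22 to 0.08 (limma adjusted p = 0.567). Probe set 1419214_at read 7.32, 6.72 and 7.36 with estradiol, against 7.30, 7.37 and 7.31 without. Its difference of -0.19 ± 0.17 did not pass (limma adjusted p = 0.521). Again estradiol replicate 2 was the low array, and without it the difference was 0.01.

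**Figure D2:**
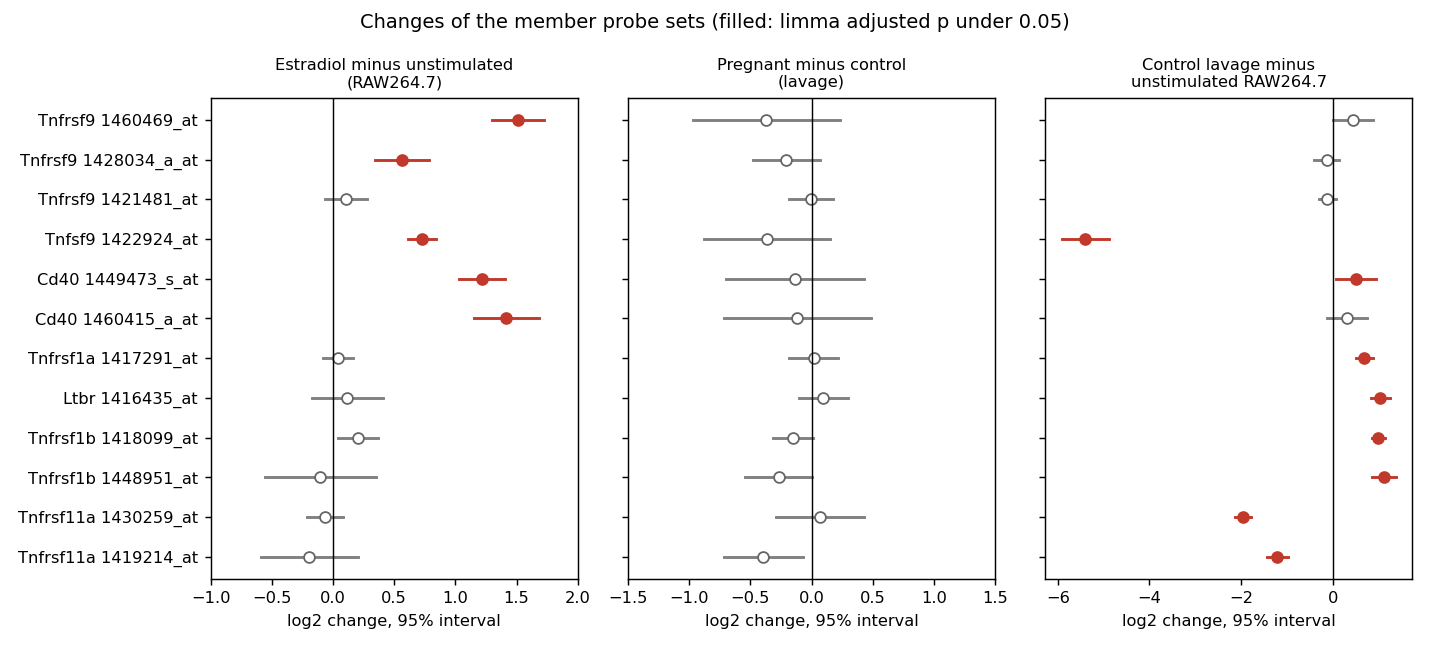
Log2 change of each probe set (point) with its 95% limma interval (line) for estradiol minus unstimulated RAW264.7 cells, pregnant minus control lavage cells, and control lavage minus unstimulated RAW264.7 cells. Filled points passed the adjusted p threshold of 0.05, which 5 probe sets did with estradiol, 0 with pregnancy and 8 between the sources. Horizontal scales differ between panels.

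The same 12 probe sets gave 0 calls between lavage macrophages of pregnant and control mice by limma, and 0% of all probe sets passed. At an unadjusted p under 0.05 there was 1 probe set, Tnfrsf11a 1419214_at, against 9.88% of all probe sets. With 1 lead probe set per gene, 4 of the 7 differences were negative and 3 positive, and 60.5% of all genes were positive. The groups did not overlap for 3 probe sets, all lower in pregnant samples, against 6.79% of all probe sets. In lavage, fewer cells of a type and less RNA per cell cannot be told apart. Every interval of these differences included 0 except that of Tnfrsf11a 1419214_at.

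Among the inducible genes, Tnfrsf9 1460469_at read 5.62, 6.11 and 5.29 in pregnant samples, against 6.44, 5.88 and 5.80 in control samples. The ranges overlapped, with a difference of -0.37 ± 0.25 and a 95% interval of -0.97 to 0.23 (limma adjusted p = 0.653). Probe set 1428034_a_at differed by -0.21 ± 0.11 (adjusted p = 0.590) and 1421481_at by -0.01 ± 0.08 (adjusted p = 0.989). All 3 were dim on all 6 lavage arrays. Tnfsf9, dim on the same 6 arrays, read 5.89, 6.08 and 6.06 in pregnant samples, against 6.81, 5.91 and 6.40 in control samples, a difference of -0.36 ± 0.22 (adjusted p = 0.615).

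Cd40 1449473_s_at read 7.09, 7.65 and 6.97 in pregnant samples, against 7.78, 7.17 and 7.16 in control samples. One array of each group was high, pregnant replicate 2 and control replicate 1, and the groups overlapped (-0.13 ± 0.24, interval -0.70 to 0.43, limma adjusted p = 0.879). Probe set 1460415_a_at showed the same 2 high arrays, with 6.72, 7.34 and 6.53 in pregnant samples and 7.38, 6.75 and 6.82 in control samples (-0.12 ± 0.25, adjusted p = 0.907). The sign of these small differences was not stable. Without control replicate 1 they were 0.07 for 1449473_s_at and 0.08 for 1460415_a_at, and without pregnant replicate 3 they were -0.001 and 0.0514. Tnfrsf9 1460469_at was highest in the same array of each group.

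**Figure D3:**
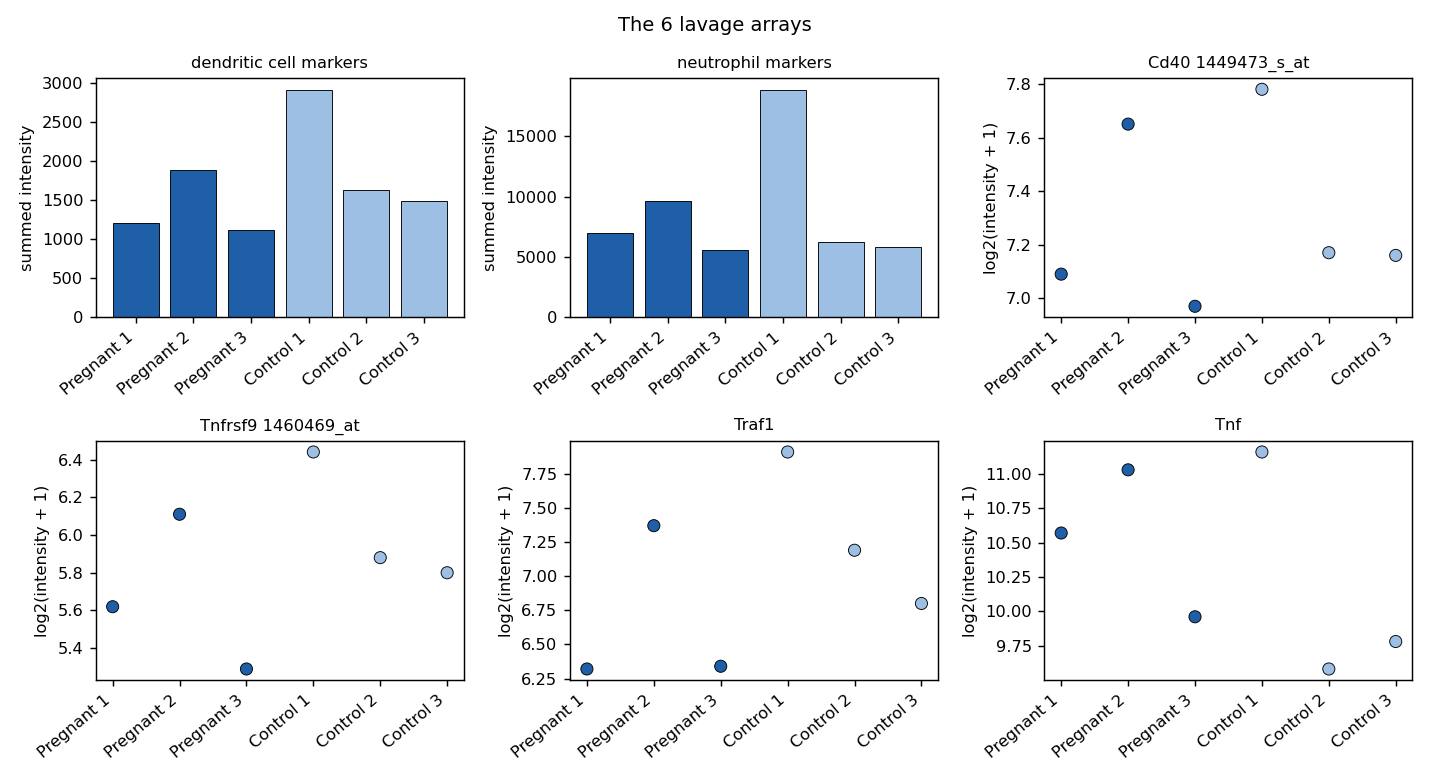
The 6 lavage arrays, pregnant and then control. Bars give the summed intensity of the 8 measured dendritic cell markers and the 7 measured neutrophil markers, and points give log2(intensity + 1) of Cd40, Tnfrsf9, the adaptor Traf1 and the ligand Tnf. Pregnant replicate 2 and control replicate 1 were the highest of their group in every panel.

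Those 2 arrays also had the highest marker sums of their groups for dendritic cells, neutrophils, epithelium and B cells, a pattern noticed after the values were seen. It did not hold for T cell and NK cell markers. Their highest pregnant sums were 12912 in replicate 3 and 986 in replicate 1, against 12596 and 980 in replicate 2. Pregnant replicate 2 further had the highest 3' minus 5' difference of its group for the transferrin receptor, 3.86 against 2.83 and 3.47 on the other pregnant arrays. Control replicate 1 was not the highest of its group, at 3.21 against 3.38 and 2.84 on the other control arrays. Dendritic cell markers summed to 1209, 1885 and 1120 (intensity) in pregnant samples, against 2917, 1633 and 1485 in control samples. Neutrophil markers summed to 6996, 9626 and 5601 in pregnant samples, against 18867, 6224 and 5819 in control samples. Of these markers Mpo, Ngp and Camp were dim on all 12 arrays, and Cxcr2 lay above the 40th percentile on 1. Epithelial markers summed to 22124, 27476 and 15986 in pregnant samples, against 23767, 14034 and 18434 in control samples. Limma called 0 of the 8 dendritic cell markers and 0 of the 7 neutrophil markers between pregnant and control samples, with 0 and 2 at an unadjusted p under 0.05. It also called 0 of 9 epithelial and 0 of 11 T cell markers, with 3 of each at an unadjusted p under 0.05. Of all genes, 9.04% had such a p. The median log2 difference was 0.64 for the epithelial and -0.56 for the T cell markers, against 0.03 over all genes. Xcr1, a marker of a subset of dendritic cells, was dim on all 12 arrays. The marker Ccr7 averaged 7.92 in pregnant and 9.02 in control samples (log2), Ccl22 averaged 8.11 and 8.92, and Zbtb46 averaged 8.05 and 8.43, while Batf3 averaged 8.25 in pregnant and 7.99 in control samples. Summed B cell markers were low in the lavage groups, 322, 368 and 311 in pregnant and 410, 406 and 346 in control samples, and the defining B cell genes Ms4a1, Cd79a, Cd79b and Pax5 were dim on all 12 arrays. T cell markers summed to 12076 to 12912 in pregnant and 12278 to 13806 in control samples, with 2 to 3 and 2 to 6 of 11 above the 40th percentile. Cd2 alone averaged 13.39 (log2) in both lavage groups. The list also summed to 10188 to 10503 in unstimulated and 7765 to 8250 in estradiol-treated RAW264.7 cells, so this sum does not measure T cells alone. The T cell genes Cd3d, Cd3e and Cd3g averaged 6.68, 6.53 and 5.88 in pregnant samples, against 7.50, 7.61 and 7.26 in control samples. Not all of the list went that way, with 7 differences negative and 4 positive. Il7r averaged 10.09 in pregnant and 9.98 in control samples, and Zap70 averaged 6.25 and 6.17. With both high arrays left out, a choice made after seeing the data, the Cd40 differences were -0.14 and -0.16 and that of Tnfrsf9 1460469_at was -0.39, with 0 calls among the 12 probe sets (limma adjusted p = 0.765, 0.773 and 0.601). The part of other cell types and of RNA quality in the levels of Cd40 and Tnfrsf9 was not tested.

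The remaining receptors lay close together in the lavage groups. Tnfrsf1a read 12.08, 12.02 and 12.07 in pregnant samples, against 11.89, 12.09 and 12.15 in control samples (0.02 ± 0.08, interval -0.19 to 0.22, limma adjusted p = 0.970). Ltbr read 11.14, 11.18 and 11.26 in pregnant samples, against 10.97, 11.22 and 11.10 in control samples (0.10 ± 0.08, interval -0.11 to 0.30, limma adjusted p = 0.726). Both genes overlapped between the groups.

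Tnfrsf1b did not overlap between pregnant and control samples on either probe set, but neither difference passed. Probe set 1418099_at read 12.87, 12.77 and 12.72 in pregnant samples, against 12.93, 12.89 and 12.99 in control samples, a difference of -0.15 ± 0.07 (limma adjusted p = 0.529). Probe set 1448951_at read 8.84, 8.67 and 8.81 in pregnant samples, against 9.28, 8.95 and 8.90 in control samples, a difference of -0.27 ± 0.12 (limma adjusted p = 0.512). The Tnfrsf11a probe sets pointed in different directions. Probe set 1419214_at, dim on all 6 lavage arrays, read 5.49, 5.82 and 5.85 in pregnant samples, against 6.28, 5.92 and 6.14 in control samples (-0.39 ± 0.13, limma adjusted p = 0.456). Probe set 1430259_at read 6.82, 7.41 and 7.06 in pregnant samples, against 6.93, 7.03 and 7.13 in control samples (0.07 ± 0.15, adjusted p = 0.910).

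The pregnancy and estradiol changes were compared directly in one fit of all 12 arrays, in which lavage and cell-line arrays share 1 spread per probe set. Of the 12 probe sets, 5 had a pregnancy change below the estradiol change and 0 one above it, against 1.65% of all probe sets called in that direction. They were the 5 that rose with estradiol. This test shares its estradiol and unstimulated arrays with the estradiol comparison, and no pregnancy change passed. That the same 5 were called was therefore largely set by the estradiol calls. For Tnfrsf9 1460469_at the pregnancy change minus the estradiol change was -1.89 ± 0.29 (log2, limma adjusted p = 0.00695), and for 1428034_a_at it was -0.77 ± 0.15 (0.0257). For Cd40 1449473_s_at it was -1.35 ± 0.27 (0.0257) and for 1460415_a_at -1.53 ± 0.30 (0.0228). For Tnfsf9 it was -1.09 ± 0.24 (0.0363). These Tnfrsf9 probe sets and Tnfsf9 were dim on all 6 lavage arrays, and Cd40 1460415_a_at on all but 2. A pregnancy change may therefore be understated there. Tnfrsf1b 1418099_at, at -0.35 ± 0.09, did not pass (limma adjusted p = 0.0720). It did without estradiol replicate 2 (0.0432), with dim probe sets filtered out (0.0437), with another prior (0.0277) and with array weights (0.0126). Those weights gave estradiol replicate 3 10.7, against 0.333 to 1.92 for the other arrays. It did not pass without any other single array (adjusted p up to 0.171), with quantile normalization (0.0723) or with the 2 high lavage arrays left out together (0.144). The count fell to 1 without unstimulated replicate 1 or 3 or estradiol replicate 1 or 3, to 3 without unstimulated replicate 2 and to 2 without pregnant replicate 3. Tnfrsf9 1460469_at kept its call without any 1 array (limma adjusted p = 0.00256 to 0.0257). Tnfsf9 lost its call in 10 of the 12 such fits (adjusted p = 0.0560 to 0.0917), keeping it only without control replicate 1 or 2. Cd40 lost its call in 6 fits for 1449473_s_at and 4 for 1460415_a_at, and Tnfrsf9 1428034_a_at in 5. The estradiol treatment and pregnancy differ in cell source, culture and duration, so this is a difference between 2 comparisons of unlike material.

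The family members differed between the sources even without treatment. Set against unstimulated RAW264.7 cells, control lavage macrophages had higher levels of 5 probe sets and lower levels of 3 (limma). Of all probe sets 26.4% were higher and 34.8% lower, so most of the array differed between the sources and the members' calls say little about the family. These tests share their control and unstimulated arrays with the pregnancy and estradiol comparisons. Origin, culture and cell mixture go together with the source and cannot be told apart.

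The Tnfsf9 signal was high in one source and dim in the other. Control lavage samples, at 6.81, 5.91 and 6.40, lay far below unstimulated RAW264.7 cells, at 11.73, 11.79 and 11.79 (log2 change -5.40 ± 0.21, limma adjusted p = 2.1e-06). Since the probe set was dim on all 3 control lavage arrays, this size is best read as a lower bound. Tnfrsf11a was lower in control lavage cells on both probe sets, by 1.96 ± 0.08 on the log2 scale for 1430259_at (3.88-fold, adjusted p = 2.1e-06 by limma) and by 1.21 ± 0.09 for 1419214_at (2.32-fold, adjusted p = 5.0e-05 by limma).

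The TNF and lymphotoxin receptors were higher in control lavage cells than in unstimulated RAW264.7 cells. Tnfrsf1b differed by 1.00 ± 0.06 and 1.12 ± 0.11 on its probe sets 1418099_at and 1448951_at (limma adjusted p = 1.3e-05 and 0.00013). Ltbr differed by 1.04 ± 0.09 (2.06-fold, adjusted p = 7.1e-05) and Tnfrsf1a by 0.69 ± 0.08 (1.61-fold, adjusted p = 0.000273). Cd40 1449473_s_at was higher by 0.51 ± 0.18 (limma adjusted p = 0.0472), a call that ended without any 1 of the unstimulated arrays (adjusted p = 0.0896, 0.138 and 0.0795) and with quantile normalization (0.0788). The other Cd40 probe set (0.31 ± 0.18) and the Tnfrsf9 probe sets 1460469_at (0.45 ± 0.18), 1428034_a_at (-0.13 ± 0.11) and 1421481_at (-0.11 ± 0.08) did not pass (limma adjusted p = 0.174, 0.0688, 0.360 and 0.235).

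Across all 4 groups the members fell into different orders of level. Both Cd40 probe sets and Tnfrsf9 1460469_at had their highest mean in estradiol-treated RAW264.7 cells, apart from the next group, control lavage cells, while pregnant and control lavage samples overlapped. Pregnant samples overlapped unstimulated RAW264.7 cells for Tnfrsf9 1460469_at and Cd40 1460415_a_at but not for Cd40 1449473_s_at. Tnfsf9 ran from estradiol through unstimulated cells to the control and pregnant lavage samples, and only the lavage groups overlapped. Tnfrsf1a and Ltbr were highest in lavage samples, and each source's 2 groups overlapped. Tnfrsf1b 1418099_at was highest in control lavage samples, followed by pregnant samples, estradiol-treated cells and unstimulated cells, with no neighbours overlapping. Tnfrsf11a 1430259_at was highest in the RAW264.7 groups, which overlapped each other.

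Genes around the family were counted by 1 lead probe set per gene, the one with the highest mean over the 12 arrays. With estradiol, 5.82% of all 12393 genes were called higher and 4.06% lower. The lists were chosen with earlier results of these data known, so counts above these shares are no test of a list. Of 19 other TNF family receptors measured, 3 rose and 1 fell (median log2 change 0.05, against 0.02 over all genes). Fas, the death receptor for Fas ligand, was at 10.22, 9.80 and 10.07 on the estradiol arrays, against 8.30, 8.32 and 8.42 on the unstimulated arrays. It rose by 1.69 ± 0.11 (3.22-fold, limma adjusted p = 0.00046). Tnfrsf10b, a receptor for the death ligand TRAIL, rose by 0.85 ± 0.14 on its lead probe set, which was dim, and by 1.64 ± 0.14 on another (limma adjusted p = 0.0136 and 0.0014). That other probe set had a still lower mean over the 12 arrays. Tnfrsf22, a decoy receptor for TRAIL in mice, rose by 0.30 ± 0.07 (adjusted p = 0.0494), and its other probe sets, at 0.05 ± 0.08 and 0.33 ± 0.11, did not pass (0.734 and 0.126). By contrast Tnfrsf17, a receptor best known from plasma cells, fell by 0.95 ± 0.10 (adjusted p = 0.00267). The count of called receptors was 2 without unstimulated replicate 3 or estradiol replicate 3, since Tnfrsf10b (adjusted p = 0.0558 and 0.0568) and Tnfrsf22 (0.149 and 0.117) lost their calls. Tnfrsf22 also lost its call without unstimulated replicate 1 or 2 or estradiol replicate 1 (limma adjusted p = 0.158, 0.156 and 0.0631).

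Ligand genes with a call were Tnf and Ltb, 2 of 13, both higher (median of the list 0.01). Tnf, the ligand of Tnfrsf1a and Tnfrsf1b, was at 11.72, 11.49 and 11.53 on the estradiol arrays, against 10.81, 10.74 and 10.84 on the unstimulated arrays. It rose by 0.78 ± 0.07 (1.72-fold, limma adjusted p = 0.00176). Ltb, a chain of the Ltbr ligand, rose by 0.53 ± 0.05 (1.44-fold, adjusted p = 0.00159). In one fit of all 12 arrays neither call held (adjusted p = 0.255 and 0.296). The ligands Lta (0.15 ± 0.09), Cd40lg (-0.02 ± 0.10) and Tnfsf11 (0.01 ± 0.08) and the RANKL decoy Tnfrsf11b (0.00 ± 0.05), all dim on the 6 RAW264.7 arrays, did not pass (limma adjusted p = 0.386, 0.917, 0.938 and 0.968). So the ligands of Cd40 and Tnfrsf11a were not above dim signal in the cell line.

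**Figure D4:**
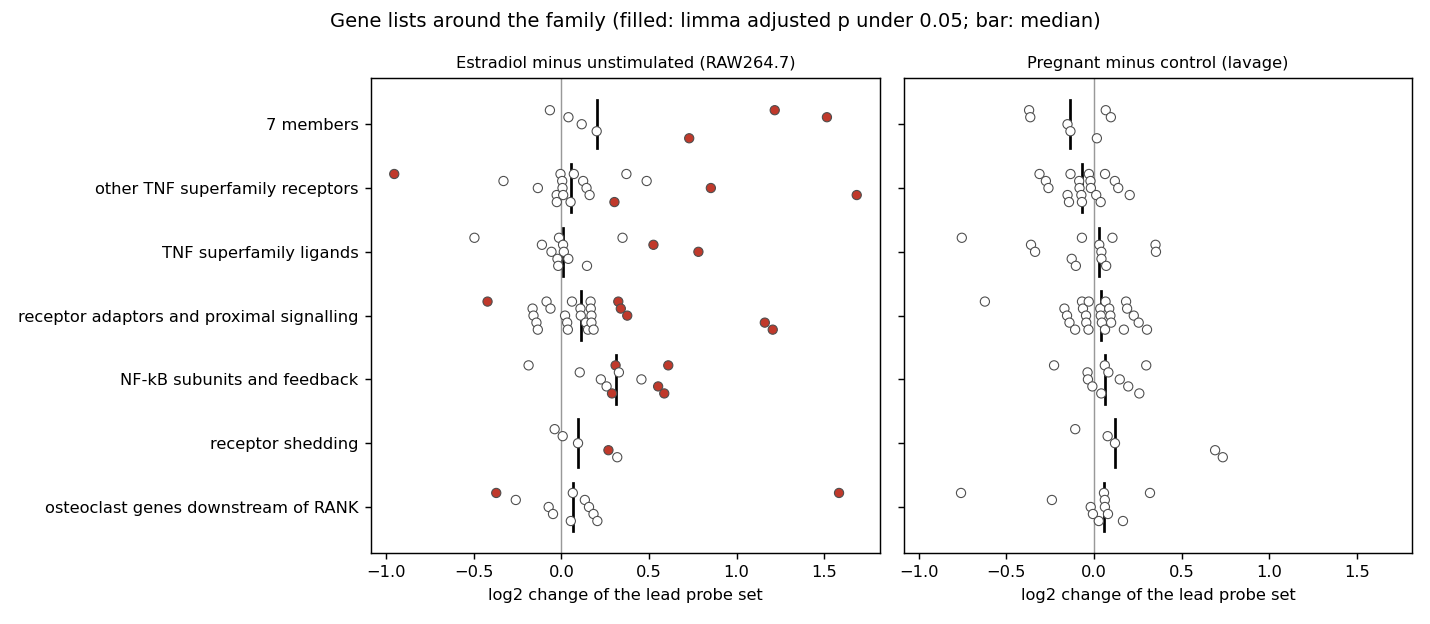
Log2 change of the lead probe set of each gene in 7 lists, for estradiol minus unstimulated RAW264.7 cells and for pregnant minus control lavage cells. Filled points passed the adjusted p threshold of 0.05 and the black bar is the list's median. Calls appear only in the estradiol panel, where Tnfrsf9, Fas and Mmp9 lie furthest to the right.

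Of 25 adaptor and signalling genes, 5 rose and 1 fell (median 0.11). Traf1, an adaptor of Tnfrsf9, Cd40 and Tnfrsf1b that is itself induced by NF-kB, was at 9.64, 9.64 and 9.55 with estradiol, against 8.45, 8.31 and 8.45 without. It rose by 1.21 ± 0.06 (2.31-fold, limma adjusted p = 0.000283). Birc3, a ubiquitin ligase in these receptor complexes, rose by 0.38 ± 0.05 (adjusted p = 0.00606), the kinase Map3k7 by 0.32 ± 0.06 (0.0202) and Ripk3, a kinase of necroptosis, by 0.34 ± 0.07 (0.0277). Traf4 rose by 1.16 ± 0.18 (limma adjusted p = 0.0111), while its other probe set was at 0.17 ± 0.10 (0.353). Traf5, an adaptor of Cd40 and Ltbr, fell by 0.42 ± 0.09 (adjusted p = 0.0354). Traf2 (0.17 ± 0.07) and Traf6 (0.17 ± 0.05) did not pass (limma adjusted p = 0.165 and 0.0759), and Traf3 was not analysed here. Only 2 calls remained without unstimulated replicate 2 or 3. Traf1 and Birc3 kept theirs without any 1 array.

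Of 11 NF-kB subunits and feedback genes, 5 rose and 0 fell (median 0.31). They were Nfkbie (0.61 ± 0.06), Nfkbiz (0.55 ± 0.08), Relb (0.59 ± 0.11), Nfkbib (0.31 ± 0.07) and Nfkbia (0.29 ± 0.05), with limma adjusted p of 0.00264, 0.0116, 0.0247, 0.0437 and 0.0162. Relb is a subunit of the branch driven by Cd40 and Ltbr, and Nfkbia and Nfkbie encode inhibitors that hold NF-kB in the cytoplasm. The count was 1 without unstimulated replicate 1 or 2, 2 without unstimulated replicate 3, and 3 without estradiol replicate 3. Fitting the 12 arrays together left 2, Nfkbia and Nfkbib (limma adjusted p = 0.0457 and 0.0300). Nfkbie was the only one of the 5 that kept its call without any 1 array, but it did not pass in the fit of all 12 (adjusted p = 0.0556). Of 5 genes of receptor shedding, 1 rose, the sheddase Adam17 (0.27 ± 0.06, limma adjusted p = 0.0330). Its other probe sets, at 0.06 ± 0.23 and 0.17 ± 0.08, did not pass (0.905 and 0.267). That call ended without any 1 of the RAW264.7 arrays except estradiol replicate 2 (adjusted p = 0.0595 to 0.134).

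Of 11 genes that RANK signalling induces in osteoclasts, 1 rose and 1 fell (median 0.07). Mmp9, a secreted protease, was at 9.75, 9.74 and 9.77 with estradiol, against 8.24, 8.08 and 8.20 without (1.58 ± 0.06, limma adjusted p = 8.1e-05). Acp5, the tartrate-resistant acid phosphatase used as an osteoclast stain, fell by 0.37 ± 0.05 (adjusted p = 0.00641). Nfatc1, the master transcription factor of osteoclasts, was at 0.16 ± 0.08 and did not pass (adjusted p = 0.278).

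In lavage macrophages limma called 0 genes of any of these 6 lists between pregnant and control samples, with 2 other receptors, 1 ligand, 0 adaptors, 0 NF-kB genes, 1 shedding gene and 2 osteoclast genes at an unadjusted p under 0.05, against 9.04% of all genes. Rhbdf1, a partner of the sheddase Adam17, had the largest positive difference among the genes named from these lists (0.74 ± 0.13, limma adjusted p = 0.370). Tnfsf13b, a B cell survival ligand, was at 0.35 ± 0.09 (0.411) and Tnfrsf21 at -0.27 ± 0.11 (0.492). Traf1 differed by -0.62 ± 0.37 (0.618), with 6.32, 7.37 and 6.34 in pregnant samples against 7.91, 7.19 and 6.80 in control samples. Pregnant replicate 2 and control replicate 1 were again its highest arrays. Tnf differed by 0.35 ± 0.46 (0.830), with 10.57, 11.03 and 9.96 in pregnant samples against 11.16, 9.58 and 9.78 in control samples.

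Of 19 other receptors of the family, 5 were higher and 5 lower in control lavage cells than in unstimulated RAW264.7 cells. Over all genes 27.8% were higher and 33.6% lower, so these counts say little about the family. Tnfrsf21, which encodes death receptor 6, averaged 11.81 in control lavage cells and 4.99 in unstimulated RAW264.7 cells, where it was dim (log2 change 6.81 ± 0.11, limma adjusted p = 6.0e-08). Fas averaged 10.99 and 8.35 (2.64 ± 0.13, adjusted p = 5.7e-06). Traf1 ran the other way, averaging 7.30 in control lavage cells and 8.40 in unstimulated RAW264.7 cells (-1.11 ± 0.26, adjusted p = 0.0102).

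The genes whose pattern was most like that of each member were sought among 8159 genes over the 12 arrays, after subtracting the mean of the 6 cell-line and of the 6 lavage arrays. For Tnfrsf9 they were Tbc1d8 (Pearson r = 0.99), 2510009E07Rik (0.97) and the prostaglandin E synthase Ptges (0.97). For Cd40 they were Tbc1d8 (0.97), the chemokine Cxcl2 (0.97) and the transcription factor Ets2 (0.97). For Tnfsf9 they were the amino acid transporter Slc1a4, the granule proteoglycan Srgn (both 0.95) and Aif1 (0.94). Each of these genes was higher with estradiol, by 0.43 to 2.22 (log2, limma adjusted p of at most 0.00464). The estradiol step between 2 groups of arrays is shared by all of them. Tnfrsf1b was most like Zfyve16 (0.91), Gramd4 and Fam20b (0.90 each). Tnfrsf1a was most like Banp (0.96), Maf1 (0.94) and Mlxip (0.90), Ltbr like Taf1c, Sipa1 (0.98 each) and Hexdc (0.97), and Tnfrsf11a like Eif2b5, Cwc27 and Dph6 (0.89 each). These are the highest of many correlations and carry no test.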

How the data were processed

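Total RNA of 12 samples was measured on arrays. The authors deposited 1 linear intensity per probe set and array, made with RMA, which corrects background, normalizes by quantiles and summarises probes, per the submitters' processing notes, with no version stated. The values ran from 6.51 to 28506, so log2(value + 1) was used. Of 22690 probe sets, 64 controls were left out. Platform annotation gave 20380 probe sets 1 symbol, 691 several and 1555 none. No symbol was replaced through its Entrez ID, and 29 had no match. No 2 arrays were identical.

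All 22626 probe sets were fitted with limma 3.58.1 in R 4.3.3 (lmFit, eBayes, two-sided, Benjamini-Hochberg over all of them, called at adjusted p under 0.05), files being read with data.table. Each comparison used its 6 arrays, and the pregnancy change minus the estradiol change used all 12. Fits were checked on simulated data. Plots were drawn with matplotlib 3.10.9, and tables were made in Python 3.11.15 with numpy 2.4.6 and pandas 2.3.3. The members and gene lists were chosen with earlier results of these data known. Genes named from the lists are up to 5 called ones by smallest p with estradiol, 3 by smallest p with pregnancy, and the ligands, decoy and adaptors of the members. Genes of these lists without a single-gene probe set were not analysed here. Gene lists were described by counts and medians. Alternatives were other normalizations, a filter on dim probe sets (under the 40th percentile on all but 2 or fewer arrays), 1 probe set per gene, another prior, array weights, 1 fit of all arrays, other pseudocounts, a threshold of 0.01 and each array left out. Leaving out 2 lavage arrays together was added after seeing the data. Promoters are from RefSeq. Of the 7 genes, 5 matched.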

Additional observations from a re-analysis of the deposited data

Results flagged for a closer look

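The pregnancy change in lavage macrophages differed from the estradiol change in RAW264.7 cells for 5 probe sets of 3 genes, by the limma test of the difference itself. As pregnancy change minus estradiol change, on the log2 scale, the values were -1.89 for Tnfrsf9 1460469_at and -0.77 for Tnfrsf9 1428034_a_at. They were -1.35 for Cd40 1449473_s_at, -1.53 for Cd40 1460415_a_at and -1.09 for Tnfsf9 1422924_at. The Tnfrsf9 and Tnfsf9 probe sets were dim on all 6 lavage arrays, so a pregnancy change may be understated there. The test shares its estradiol and unstimulated arrays with the estradiol comparison, so it is not a separate finding from the estradiol calls. With the lavage arrays pregnant replicate 2 and control replicate 1 left out together, all 5 calls held. With each of the 12 arrays left out in turn, Tnfrsf9 1460469_at kept its call, while Tnfsf9 lost its call in 10 fits, Cd40 1449473_s_at in 6, Tnfrsf9 1428034_a_at in 5 and Cd40 1460415_a_at in 4.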

How the results depend on the processing

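With estradiol 4 to 6 of the 12 probe sets were called, except 3 with 1 probe set per gene, where 7 were tested. Pregnancy gave 0 calls under all alternatives and the source comparison 6 to 9. For the pregnancy change minus the estradiol change the 5 calls became 6 with array weights or another prior, where Tnfrsf1b 1418099_at passed, 3 with 1 probe set per gene, 1 at an adjusted p under 0.01, and 1 to 5 without any 1 array. Differences whose sign turned had not passed. With array weights, whose estimate did not converge for the estradiol comparison, these were, with estradiol, Tnfrsf11a 1419214_at (0.0202) and Tnfrsf1b 1448951_at (0.16), with pregnancy, Tnfrsf11a 1430259_at (-0.0735), Tnfrsf1a (-0.0168) and Tnfrsf9 1421481_at (0.0189), and for the difference of changes, Ltbr (0.0011) and Tnfrsf11a 1430259_at (-0.0338). A common median gave 0.0242 for Tnfrsf9 1421481_at in pregnancy. With 2 lavage arrays left out together, the pregnancy values of Tnfrsf11a 1430259_at and Tnfrsf1a were -0.136 and -0.0436, and the differences of changes of Tnfrsf11a 1430259_at and Tnfrsf1b 1448951_at were -0.0706 and 0.0029. The cause was not tested. Without any 1 array, estradiol values ranged from -0.011 to 0.213 for Ltbr, -0.307 to 0.0122 for Tnfrsf11a 1419214_at and -0.239 to 0.135 for Tnfrsf1b 1448951_at. Pregnancy values ranged from -0.343 to 0.0714 and -0.354 to 0.0816 for Cd40 1449473_s_at and 1460415_a_at, -0.0885 to 0.202 for Tnfrsf11a 1430259_at, -0.0608 to 0.0711 for Tnfrsf1a and -0.0414 to 0.0424 for Tnfrsf9 1421481_at. Differences of changes ranged from -0.117 to 0.107 for Ltbr, -0.0228 to 0.268 for Tnfrsf11a 1430259_at and -0.101 to 0.031 for Tnfrsf1a. Array weights called 9 of 19 other receptors, 7 of 13 ligands and 16 of 25 adaptors with estradiol. They also called 10 of 11 NF-kB genes and 8 of 11 osteoclast genes. The share of all genes called with these weights was not counted, so no response of the lists can be read from these counts. No paired analysis was possible because the labels give no shared replicate numbers. The deposited table holds no detection calls, so dim values have no measured background.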
